A study of Homo sapiens with 6 samples.

Results

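Proteoglycans are core proteins that carry long sulfated sugar chains, the glycosaminoglycans heparan sulfate and chondroitin sulfate. The 44 genes described here encode syndecans, glypicans, secreted core proteins and the enzymes that build, sulfate and trim these chains. They were chosen by gene family, with earlier results of these arrays in view, in which SDC4, CHPF and HS6ST1 had stood out. The differences of these 3 genes, and counts that include them, are therefore a description. Each gene was read by its brightest probe set over the 6 arrays, among the probe sets annotated with that gene symbol alone. In this way 43 of the 44 genes were measured, of 19775 genes on the array. NDST2 was not analysed here.

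The cells were HCT116, an established human colon carcinoma line. Control cells were transfected with control oligos and miR-224 cells with precursor molecules of the microRNA miR-224. Both were given at a dose of 50 nM, and RNA was extracted at 24 h. There were 3 arrays in each group, and the control and miR-224 arrays form 3 pairs from 3 independent experiments, numbered in the sample titles. This is 1 cell line, and both groups were transfected. The levels below are RMA expression values, read as log2 although the base of the logarithm is not stated.

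A microRNA pairs with messenger RNAs mainly through its seed, bases 2 to 8, and lowers the level or the translation of those it binds. Both mature arms of miR-224 are shown because their seeds define which messages could pair with the transfected molecule. They are taken from RefSeq (GRCh38.p14) with the seed in capitals, and lie on the minus strand of chromosome X, at chrX:151958628-151958652 for the 5p arm and chrX:151958584-151958606 for the 3p arm. Which arm the precursor was designed to deliver is not given in the sources used here.
hsa-miR-224-5p: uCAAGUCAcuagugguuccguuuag
hsa-miR-224-3p: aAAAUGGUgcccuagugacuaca
Matches to either seed in the messages of the 44 genes were not analysed here.

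Glycosaminoglycan chains are made in the Golgi. Xylose is first placed on a serine of the core protein, a short linker of galactose and glucuronic acid is added to it, and the chain then grows as heparan sulfate or as chondroitin sulfate. Sulfotransferases and epimerases pattern the chain, which decides the growth factors, morphogens and matrix proteins it can hold. In epithelial cells syndecans and glypicans carry much of the heparan sulfate at the cell surface, where it acts as a co-receptor for growth factor and WNT signalling.

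In the miR-224 cells the largest differences among the 43 genes went in opposite directions. SDC4, the core protein syndecan-4, was lower in every experiment, and CHPF, a subunit of the polymerase that extends chondroitin chains, was higher in every experiment. HS6ST1, which adds sulfate at the 6 position of glucosamine in heparan sulfate, was also higher in each. Other genes with one sign in all 3 experiments included the basement membrane proteoglycan HSPG2, the linker enzyme B3GALT6 and the extracellular sulfatase SULF2. B3GALT6 differed by only -0.03 in experiment 1, and a second SULF2 probe set was lower in each experiment. XYLT1, below the median level of all genes, was lower in each by -0.54 on average. Of the 43 genes 20.9% were higher and 18.6% lower in every pair, where 18.3% and 14.4% of all genes were. No gene of the 43 passed the test of the paired fit (limma, adjusted p from 0.086 for CHPF to 0.993 for SDC2), against 0 of 19775 genes (0%). With 3 pairs an exact test on 1 gene cannot give a two-sided p below 0.25, so that calls rest on variances shared across genes.

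The arrays of experiment 1 stood apart from the others. The probe set for the 5′ end of actin read 4.42 on the control and 4.14 on the miR-224 array of experiment 1, but averaged 12.4 over the other 4 arrays. For the 3′ end of actin the mean was 12.5 in both sets of arrays. Colon epithelial markers averaged 6.54 to 7.21 on the control arrays and 6.67 to 7.20 on the miR-224 arrays, with EPCAM, KRT8, KRT18, KRT19, CDH1 and CDX2 above the median level of all genes (4.75), and KRT20, VIL1, CDH17 and LGALS4 below it. Leukocyte and endothelial markers were all below that median, and of 9 fibroblast markers COL1A1 alone was above it. The genes with the largest differences are given by experiment below, and others by their mean. The part of these features in any difference was not tested beyond the comparison of experiment 1 with the other experiments.

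**Figure D1:**
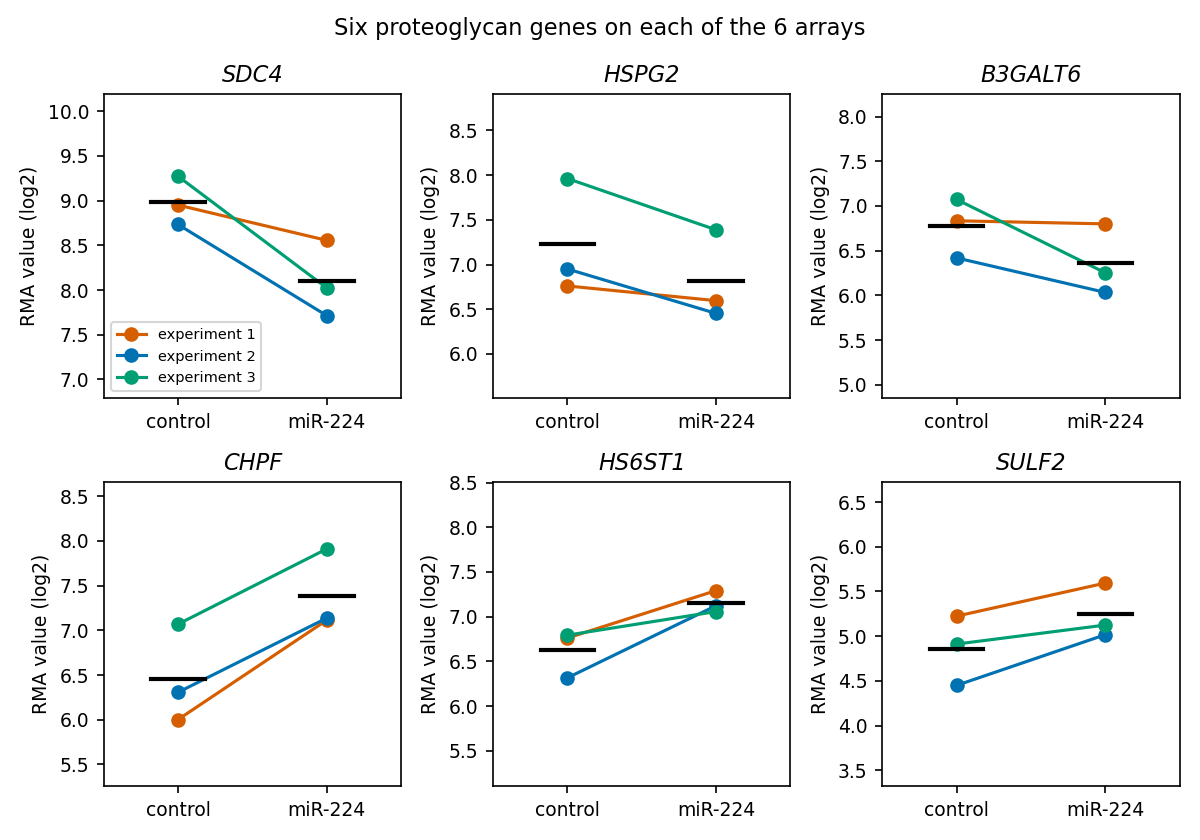
RMA value (log2) of 6 genes on each control and miR-224 array, with lines that join the 2 arrays of an experiment and black bars at the group means. SDC4, HSPG2 and B3GALT6 slope down and CHPF, HS6ST1 and SULF2 slope up in every experiment, while HSPG2 differs more between experiments than between groups.

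Syndecans are transmembrane core proteins that bind growth factors and matrix through their heparan sulfate, and SDC4 is the member found in focal adhesions. SDC4 read 8.95, 8.73 and 9.27 on the control arrays of experiments 1, 2 and 3, and 8.56, 7.71 and 8.02 on the miR-224 arrays. All miR-224 arrays lay below all control arrays, and the gap was smallest in experiment 1. The means were 8.99 ± 0.27 (SD, n = 3) in control and 8.10 ± 0.43 in miR-224 cells, a difference of -0.89 ± 0.16 (SE of the paired fit), which on a log2 scale is 54.0% of the control level. The pairs differed by -0.39, -1.02 and -1.25, and without experiment 1 the mean was -1.13. In that fit of experiments 2 and 3 alone SDC4 passed with a limma adjusted p of 0.0046, against 0.880% of all genes. SDC4 has 1 probe set on the array, so that no other reading of its transcript was available within these data.

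The other syndecans had differences nearer to 0, which were not tested against that of SDC4. SDC1, the main syndecan of epithelial cells, read 7.23, 7.18 and 6.53 in control and 7.04, 7.41 and 7.07 in miR-224 cells. The groups overlapped, and the pairs changed sign, at -0.20, 0.22 and 0.54, with a mean difference of 0.19 ± 0.14 (SE). SDC3, known from nerve and muscle, differed by -0.31, -0.18 and 0.15 in the 3 pairs. SDC2, typical of mesenchymal cells, was dim on all arrays, between 3.37 and 3.70, below the median level of all genes. Its pairs stood at -0.20, 0.00 and 0.21. On the brightest probe sets, SDC4 alone of the 4 syndecans therefore had one sign in all 3 pairs. Over all genes, 18.3% were higher and 14.4% lower in every pair. A dim second probe set of SDC3 was higher in each pair, at 0.23, 0.29 and 0.16. One dim probe set of SDC2 was lower in each, at -0.33, -0.05 and -0.06, and another stood at 0.21 on average.

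Glypicans are heparan sulfate proteoglycans held to the membrane by a lipid anchor, and they modulate WNT and hedgehog ligands. On their brightest probe sets, all 4 glypicans among the 43 genes had a slightly lower mean in miR-224 cells, where 46.8% of all genes did. The differences were -0.20 for GPC1, -0.13 for GPC4, -0.06 for GPC6 and -0.04 for GPC3. The family was not uniform, as outside the 43 genes GPC2 was higher in each pair, by 0.31 on average. GPC5 differed by -0.00087, and both were dim. GPC1 was the one glypican above the median level of all genes. It read 8.13, 7.77 and 8.11 in control and 8.04, 7.32 and 8.05 in miR-224 cells. Most of its difference came from experiment 2, whose pair stood at -0.45 against -0.10 and -0.06 in experiments 1 and 3. A second bright probe set of GPC1 differed by -0.14. GPC4 was lower in each pair by a similar small amount, between -0.18 and -0.10, although its second, dim probe set stood at 0.13. The second probe set of GPC6, also dim, was higher in each pair, at 0.05, 0.15 and 0.74. That of GPC3 stood at -0.02 on average.

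Perlecan (HSPG2) and agrin (AGRN) are large secreted core proteins of basement membranes. HSPG2 read 6.76, 6.95 and 7.96 in control and 6.60, 6.45 and 7.39 in miR-224 cells. The groups overlapped because experiment 3 was higher than the others in both, yet each pair was lower, by -0.16, -0.50 and -0.57, with a mean of -0.41 ± 0.12 (SE, limma adjusted p = 0.27). A second, dimmer probe set of HSPG2 stood at 0.15, -0.45 and -0.62. It had the opposite sign in experiment 1, where its level minus that of experiments 2 and 3 was -1.44. AGRN differed by -0.16 ± 0.13, with pairs at 0.15, -0.43 and -0.18. Its 3 other bright probe sets stood at 0.01, 0.32 and 0.01, so that its direction depended on the probe set.

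Of the enzymes that supply and start the chains, UGDH makes UDP-glucuronic acid and UXS1 converts it to UDP-xylose. UXS1 was lower in each pair, by -0.14, -0.16 and -0.36, with a mean of -0.22 ± 0.11 (SE). Its second probe set was also bright and stood at 0.21, 0.12 and 0.05, in the opposite direction in every experiment. UGDH differed by -0.17 ± 0.13, with pairs at -0.24, 0.14 and -0.43.

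The linker enzymes had differences of both signs. B3GALT6, which adds the second galactose of the linker, read 6.83, 6.42 and 7.07 in control and 6.80, 6.03 and 6.25 in miR-224 cells. The pairs stood at -0.03, -0.39 and -0.82, with almost no difference in experiment 1 and a mean of -0.41 ± 0.15 (SE, limma adjusted p = 0.35). A second bright probe set was lower as well, by -0.16. XYLT1, a xylosyltransferase, read 3.92, 3.28 and 3.16 in control and 2.86, 2.86 and 3.03 in miR-224 cells. The groups did not overlap, but all values were dim, the probe set is of a class that can bind related transcripts, and the other XYLT1 probe set, also dim, stood at 0.40. The second xylosyltransferase, XYLT2, stood at -0.91, 0.18 and 0.31, and its highest value was that of the control array of experiment 1, at 6.78. Its second probe set, also bright, stood at 0.20, 0.15 and 0.25. B4GALT7 and B3GAT3, which add the first galactose and the glucuronic acid of the linker, differed by 0.08 ± 0.10 and 0.09 ± 0.12, the first higher in every pair and the second of mixed sign. A second bright probe set of B4GALT7 had pairs of mixed sign, at 0.26, -0.05 and 0.15.

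The heparan polymerase and initiating enzymes showed small differences. EXT1 and EXT2, which form the polymerase, differed by -0.05 ± 0.10 and 0.04 ± 0.11 (SE). EXT1 was lower in every pair, by at most -0.09, while the pairs of EXT2 had mixed signs. A second bright probe set of EXT2 was lower in each pair, at -0.26, -0.17 and -0.17, so that its direction depended on the probe set. EXTL3, which starts the chain, stood at 0.36, -0.22 and 0.04, a mean of 0.06 ± 0.13. Its second bright probe set stood at 0.30, 0.29 and 0.05. EXTL2, which can cap the linker and so stop chain growth, was higher by 0.23, 0.18 and 0.17 in the 3 pairs. This was among the most even differences, but small, at 0.20 ± 0.10 (limma adjusted p = 0.53). Levels of EXTL2 differed far more between experiments, from 5.82 to 7.37 among control arrays.

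Enzymes that modify heparan sulfate had more higher than lower means, at 5 of 6, where 53.2% of all genes were higher. HS6ST1 read 6.76, 6.32 and 6.79 in control and 7.29, 7.12 and 7.06 in miR-224 cells, and every miR-224 array lay above every control array. The means were 6.62 ± 0.27 (SD, n = 3) and 7.16 ± 0.12, a difference of 0.53 ± 0.12 (SE, limma adjusted p = 0.22). A second bright probe set of HS6ST1 was higher by 0.24 on average, with pairs at -0.11, 0.47 and 0.35, and a dim one stood at 0.01. The paralogue HS6ST2 differed by 0.03, 0.33 and 0.06, a mean of 0.14 ± 0.11, and its second bright probe set by 0.15. The level in experiment 1 minus that in experiments 2 and 3 was -3.47 on a dim probe set of HS6ST2 and 1.04 on the brightest. Whether this goes with the low 5′ signal of experiment 1 was not tested. GLCE, the epimerase that turns glucuronic into iduronic acid, stood at -0.01, 0.81 and 0.50 on a dim probe set. HS2ST1, the 2-O-sulfotransferase, stood at -0.18, 0.40 and 0.15, and its other bright probe sets at 0.12 and -0.15 on average. NDST1, which removes acetyl groups and adds the first sulfates, differed by 0.03 ± 0.10 and HS3ST1, a 3-O-sulfotransferase, by -0.05 ± 0.11, both with pairs of mixed sign.

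On their brightest probe sets, the 3 enzymes that trim finished heparan sulfate all had higher means, where 53.2% of all genes did. SULF2, an extracellular sulfatase that removes 6-O-sulfate, read 5.22, 4.45 and 4.91 in control and 5.59, 5.02 and 5.12 in miR-224 cells. Each pair was higher, by 0.37, 0.57 and 0.21, but the groups overlapped because experiment 1 was brighter in both, and the mean was 0.38 ± 0.11 (SE, limma adjusted p = 0.28). Its second probe set was dim and stood at -0.03, -0.26 and -0.18, and its level in experiment 1 minus that in experiments 2 and 3 was -1.77. HPSE, the heparanase that cuts the chains, was higher by 0.02, 0.21 and 0.51, and its second, dim probe set was lower by -0.17 on average. SULF1, the other sulfatase, was dim and differed by 0.10 ± 0.13. Its other probe sets, also dim, stood at -0.08 and -0.06 on average. The direction shared by the 3 genes thus depended on the probe set.

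Chondroitin sulfate chains are extended by complexes of CHSY and CHPF proteins. CHPF read 6.002, 6.31 and 7.07 in control and 7.11, 7.14 and 7.91 in miR-224 cells. Every miR-224 array lay above every control array, though narrowly, as the highest control value was 7.07. The means were 6.46 ± 0.55 (SD, n = 3) and 7.39 ± 0.45, a difference of 0.93 ± 0.11 (SE), or 1.90-fold on a log2 scale. The pairs stood at 1.11, 0.83 and 0.84, and leaving out any one experiment gave 0.84 to 0.98. The SE was 0.34 when the pairing was ignored, because the level of CHPF differed between experiments as much as between groups. CHPF has 1 probe set, so this reading cannot be set against another.

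The partners of CHPF had differences nearer to 0, which were not tested against that of CHPF. CHPF2, its paralogue, stood at 0.33, -0.12 and 0.05, and a second bright probe set at -0.18, -0.29 and 0.15. CHSY1, the main chondroitin synthase, differed by -0.02, 0.06 and 0.09 in the pairs, with a mean of 0.04 ± 0.10 (SE). CHSY3 was dim and changed sign, at -0.84, 0.27 and 0.22. CSGALNACT1 and CSGALNACT2, which add the first N-acetylgalactosamine and so commit a linker to chondroitin, differed by 0.12 ± 0.11 and 0.15 ± 0.14. The first of these was dim.

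Among the enzymes that sulfate or epimerise chondroitin, 5 of 7 had a higher mean, where 53.2% of all genes did. CHST15, which makes the doubly sulfated E unit, read 8.10, 7.32 and 7.79 in control and 8.48, 7.88 and 7.85 in miR-224 cells. Its pairs stood at 0.38, 0.56 and 0.06, a mean of 0.33 ± 0.12 (SE, limma adjusted p = 0.36), with overlap between the groups. A dim second probe set stood at 0.54, 0.25 and 0.04. UST, a uronyl 2-O-sulfotransferase, was dim and stood at 0.20, 0.72 and 0.08, with a second dim probe set at -0.08. The 6-O-sulfotransferase CHST3, the 4-O-sulfotransferases CHST11 and CHST12, the dermatan sulfotransferase CHST14 and the dermatan epimerase DSE differed by -0.07 to 0.09, each with pairs of mixed sign. CHST3 stood at -0.03 on its brightest probe set and at 0.11 on a second bright one. A dim second probe set of CHST12 stood at -0.25.

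**Figure D2:**
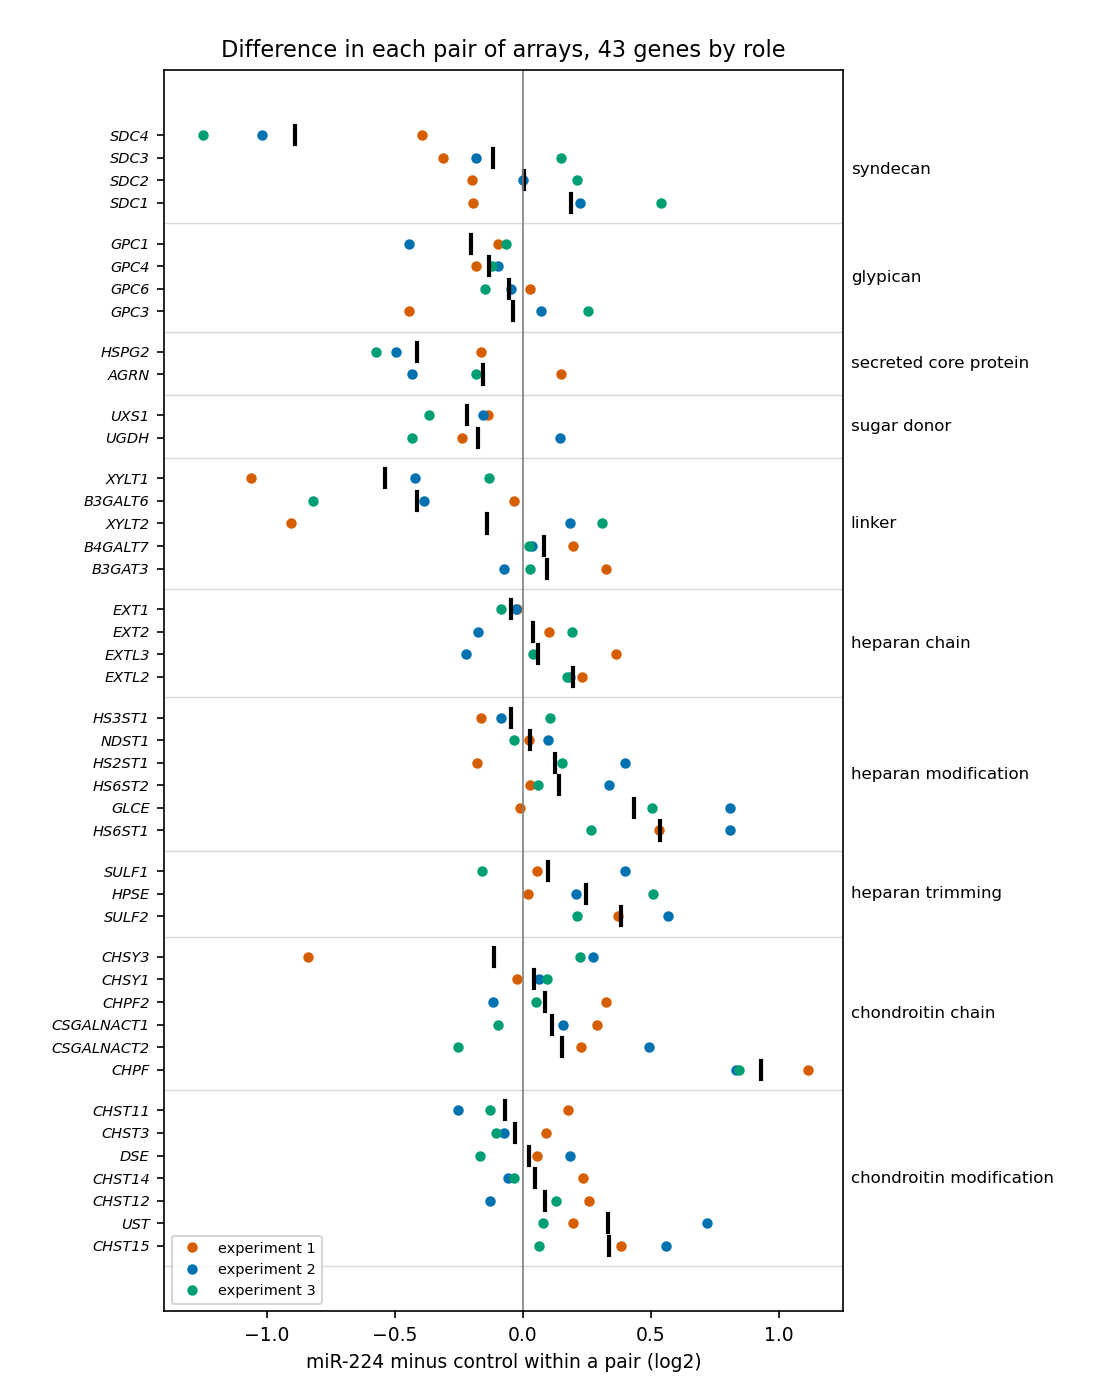
Difference between the miR-224 and the control array of each experiment (log2) for the 43 genes, grouped by role, with black bars at the mean of the 3 pairs. SDC4 at -0.89 and CHPF at 0.93 lie farthest from 0, and most other genes have points on both sides of 0.

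Over the 43 genes, 25 had a higher and 18 a lower mean in miR-224 cells, with a median difference of 0.04 against 0.01 over all genes. Of all genes 53.2% had a higher mean and 46.8% a lower one. Genes higher in every pair numbered 9 (20.9%), where 18.3% of all genes were. Genes lower in every pair numbered 8 (18.6%), where 14.4% of all genes were. At an unadjusted p under 0.05 in limma there were 6 higher genes (HS6ST1, GLCE, CHPF, CHST15, UST and SULF2), where 5.45% of all genes met this rule. There were 4 lower ones (SDC4, HSPG2, XYLT1 and B3GALT6), where 5.52% did. Groups that did not overlap were found for CHPF and HS6ST1 above (4.16% of all genes) and for SDC4 and XYLT1 below (2.11%). These counts include the 3 genes known in advance, and nothing is read from them about the list.

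When the paired fit let the variance follow the level of a gene and made it robust to outlying genes, CHPF (limma adjusted p = 0.0062) and SDC4 (0.015) passed, against 0.283% of all genes. With array weights CHPF passed (0.047), against 0.0202%. No other gene of the 43 passed in either fit. In experiments 2 and 3 alone, SDC4 and CHPF passed, against 0.88% of all genes, and no other gene of the 43 did. Without the pairing none passed, and the lowest limma adjusted p was 0.9999. At an unadjusted p under 0.05 there were 4 of the 43 in that fit, where 1.58% of all genes met the rule.

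Levels of these genes differed between experiments as well. Of the 43, 34 (79.1%) read higher in experiment 1 than in experiments 2 and 3, where 56.9% of all genes did, with a median of 0.37 against 0.05. This difference was 1.31 for CHST14, 1.26 for UXS1 and 1.24 for CSGALNACT2, while it was -0.59 for EXTL3, -0.55 for CHPF and -0.51 for HSPG2. The miR-224 difference itself was compared between experiment 1 and the other experiments with an interaction term. None of the 43 passed (lowest limma adjusted p = 0.68), nor did any of all genes (0%), and 8 of the 43 had an unadjusted p under 0.05, where 6.25% of all genes did. They were SDC1, SDC4, GPC3, GLCE, XYLT1, XYLT2, B3GALT6 and CHSY3. For SDC4 the difference was 0.74 closer to 0 in experiment 1. For CHPF it was larger there by 0.28.

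The 43 genes have 96 probe sets, and 35 genes have more than 1. Beside the brightest, 21 probe sets of 18 genes were at or above the median level, and 12 of these had the sign of the brightest and 9, in 7 genes, the opposite sign. SDC4 and CHPF, which have 1 probe set each, cannot be checked in this way. HS6ST1 and B3GALT6 kept their sign on a second bright probe set with a difference less than that of the first. HSPG2 kept it on a dim one, whereas SULF2 and XYLT1 did not.

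**Figure D3:**
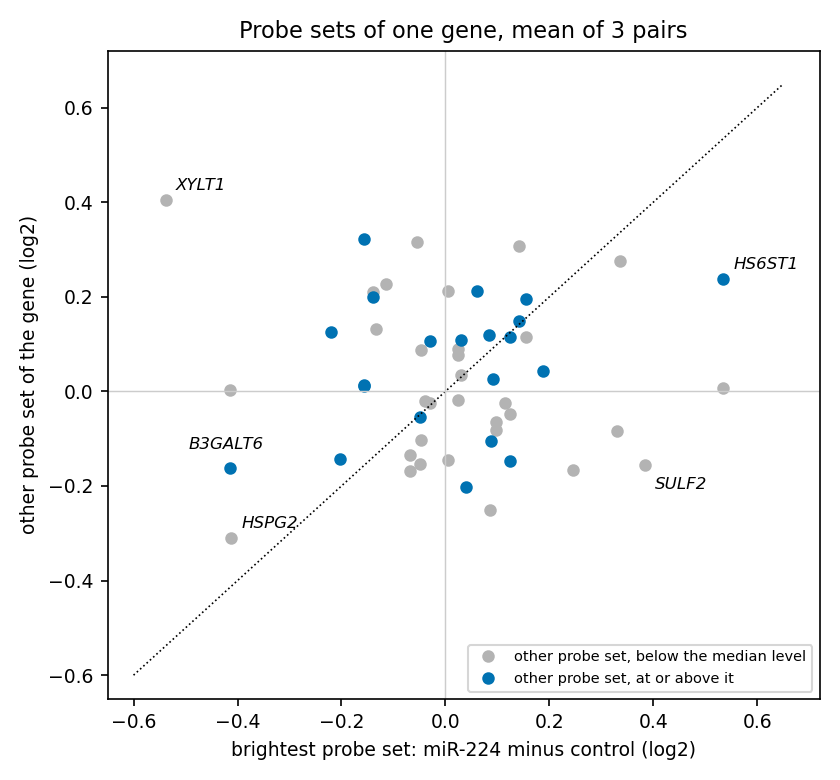
Mean difference of each other probe set of a gene (vertical, log2) against that of its brightest probe set (horizontal), with a dotted line of equality, blue for probe sets at or above the median level of all genes and grey for dimmer ones. HS6ST1 and B3GALT6 keep their sign on a bright probe set, XYLT1 lies at 0.40 against -0.54, and 9 of the 21 blue points have opposite signs.

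Other genes of the pathway were taken from 7 lists with 88 measured genes. They were written with earlier results of these arrays known, among them that of SUMF1, and are not independent evidence. None passed (limma, lowest adjusted p = 0.14, for SUMF1), and 7 higher and 5 lower genes had an unadjusted p under 0.05, where 5.45% and 5.52% of all genes did. Of the 88, 51 had a higher mean and 37 a lower one, where 53.2% and 46.8% of all genes did, with a median difference of 0.03. With variances that follow the level and are robust, SUMF1 and PXYLP1 passed, against 0.283% of all genes. SUMF1 was lower (limma adjusted p = 0.010) and PXYLP1 was higher (0.028). In experiments 2 and 3 alone 4 passed, namely SUMF1, PAPSS2, ADAM10 and PXYLP1, against 0.88% of all genes. The 4 genes of each list with the smallest p are given next.

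SUMF1, the enzyme that activates sulfatases, among them SULF1, SULF2 and the lysosomal ones, had the largest difference of these lists. It read 7.45, 6.85 and 7.25 in control and 6.87, 4.93 and 5.62 in miR-224 cells. The groups overlapped slightly, since the miR-224 array of experiment 1 lay just above the control array of experiment 2. The pairs stood at -0.59, -1.92 and -1.62, with a mean of -1.38 ± 0.21 (SE). SUMF1 has 1 probe set. Of the lysosomal hydrolases that break glycosaminoglycans down, 11 genes with SUMF1 were measured and 6 were lower, where 46.8% of all genes were. IDS, the iduronate sulfatase, stood at 0.12, -0.51 and -0.74, and its other bright probe sets at -0.35 and -0.23 on average. NAGLU and the sulfatase ARSK differed by -0.17 ± 0.13 and 0.20 ± 0.12, both with pairs of mixed sign.

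PXYLP1, the phosphatase that removes phosphate from the xylose of the linker and so lets chains grow, was the highest of the other synthesis enzymes. It read 7.17, 5.43 and 5.87 in control and 7.80, 6.81 and 6.47 in miR-224 cells. The pairs were higher by 0.63, 1.38 and 0.60, with a mean of 0.87 ± 0.16 (SE, limma adjusted p = 0.14), although the groups overlapped because experiment 1 was brighter in both. HS6ST3, HS3ST4 and NDST4, the other 3 of this list of 16, were dim and differed by 0.31, 0.22 and -0.24.

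PAPSS2, which makes the sulfate donor PAPS, read 7.90, 7.47 and 7.16 in control and 7.78, 6.50 and 6.09 in miR-224 cells. The pairs stood at -0.12, -0.97 and -1.08, with a mean of -0.72 ± 0.17 (SE, limma adjusted p = 0.22) and a mean of -1.02 without experiment 1. Its other bright probe sets stood at -0.48, with 0.49 in experiment 1, and at 0.07, with pairs at 0.82, -0.56 and -0.04. SLC26A1, a sulfate transporter, was higher by 0.37 ± 0.10 on a dim probe set. SLC35D1, which carries UDP-sugars into the endoplasmic reticulum, stood at 0.21, 0.80 and -0.07, a mean of 0.31 ± 0.16, with another bright probe set at 0.02. SLC35B3, a PAPS transporter, was lower in every pair, by -0.23 ± 0.11 on average.

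Syndecans are shed from the cell surface by membrane proteases, and ADAM10 and ADAM17 are such sheddases. ADAM10 read 8.54, 8.45 and 8.60 in control and 8.30, 7.45 and 7.99 in miR-224 cells. Every miR-224 array thus lay below every control array, as was the case for 2.11% of all genes. The ADAM10 pairs stood at -0.24, -1.001 and -0.60, a mean of -0.62 ± 0.14 (SE, limma adjusted p = 0.22), and its other bright probe sets at -0.46 and -0.64. ADAM17 was lower by -0.08, -0.78 and -0.47, a mean of -0.45 ± 0.14, and its other bright probe sets stood at -0.49 and -0.43. All 3 probe sets of each sheddase were thus lower on average, and for both genes the brightest differed least in experiment 1. The dimmest of ADAM10 stood at 0.06 in experiment 1, where its level minus that of experiments 2 and 3 was -3.08. For the dimmest of ADAM17 this level difference was -1.71. The matrix metalloproteinase MMP14 was higher by 0.30 ± 0.10, with another bright probe set at -0.11. NOTUM, a WNT-inactivating esterase that binds glypicans, was higher by 0.23 ± 0.11.

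**Figure D4:**
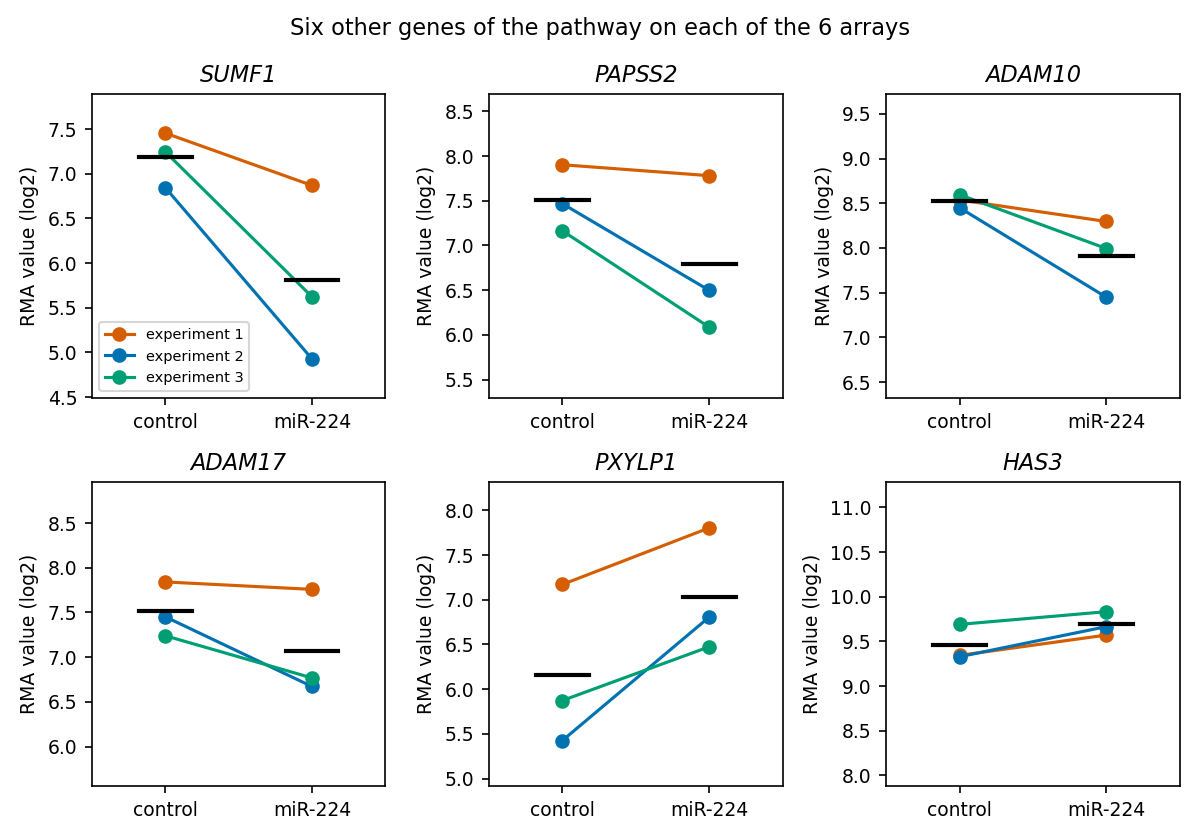
RMA value (log2) of 6 other genes of the pathway on each control and miR-224 array, with lines that join the 2 arrays of an experiment and black bars at the group means. SUMF1, PAPSS2, ADAM10 and ADAM17 slope down most in experiments 2 and 3, PXYLP1 slopes up in each, and HAS3 shows a small rise of 0.24 on average.

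Among 24 core proteins outside the 43 genes, BGN had the smallest p. BGN, the secreted proteoglycan biglycan, was higher by 0.80, 0.32 and 0.50 on a dim probe set of a class that can bind related transcripts, a mean of 0.54 ± 0.12 (SE, limma adjusted p = 0.19). The glypican GPC2 was dim as well and higher by 0.31 ± 0.10. APLP2, an amyloid precursor-like protein that can carry chondroitin sulfate, stood at 0.54, -0.03 and 0.24, a mean of 0.25 ± 0.13. Its 6 other bright probe sets ranged from -0.77 to 0.28, with 4 of them higher. BCAN, brevican, was higher in every pair, by 0.19 ± 0.11 on average, and a second bright probe set stood at -0.09, 0.18 and 0.16. Hyaluronan is a glycosaminoglycan made at the plasma membrane without a core protein. Its synthase HAS3 stood at 0.23, 0.34 and 0.14, a mean of 0.24 ± 0.11, and a dim second probe set at -0.05. HAS2 and CEMIP were dim and differed by 0.18 and 0.22, the second with pairs at -0.14, 0.52 and 0.29, and HYAL2, a hyaluronidase, by 0.06. In the keratan sulfate list B3GNT2, which extends lactosamine chains, was higher by 0.32 ± 0.11, with a second bright probe set at -0.12. B4GALT4, CHST6 and B3GNT7 differed by 0.14, 0.12 and 0.09, of which the last 2 had pairs of mixed sign.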

How the data were processed

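The data are 6 Affymetrix arrays, 3 control and 3 miR-224. RMA and Partek are named in the submitters' processing notes, without versions or settings. The values deposited by the authors were taken as log2; they lie between 1.47 and 13.6, and the base is not stated. RMA makes the arrays' distributions alike, so that differences are relative to the bulk of genes. Of 54675 probe sets, 41097 had 1 gene symbol in the array annotation, 1801 had several and the rest were unnamed or controls. Each of 19775 genes was read by its brightest probe set, and dim means below the median gene mean of 4.75. Besides XYLT1 and BGN, the brightest probe sets of APLP2, IDS and CSGALNACT2 are of the class that can bind related transcripts. So are some of the other bright probe sets given above for AGRN, APLP2, IDS, ADAM10 and ADAM17.

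Groups and replicate numbers come from the sample titles. The series describes pairs from 3 independent experiments, so the fit used the replicate number as a block. Deviations from the group means correlated between same-numbered arrays, across genes, at 0.855, 0.585 and 0.771. Between arrays of other numbers they correlated at -0.753 to 0.257. Deviations cancel out within a group, so that positive correlations of same-numbered arrays by themselves bring negative ones between other numbers. Moderated fits by lmFit and eBayes of limma 3.58.1 (R 4.3.3), with two-sided p-values adjusted by Benjamini-Hochberg across the 19775 genes at a threshold of 0.05, left 2 residual degrees of freedom, and 1 in the interaction fit and with 1 experiment left out. SE is that of the moderated paired fit. Fits were tested on simulated data, in which the paired fit made more false calls than its threshold implies. The members and lists were chosen with earlier results of these data known. Genes given in full are the 4 syndecans, the 12 other members with the smallest p of one sign in all pairs, CHPF2, HS6ST2 and 4 genes of each other list; further members are given for completeness. matplotlib 3.10.9 (Python 3.11.15) drew the figures.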

Additional observations from a re-analysis of the deposited data

How the results depend on the processing

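The number of the 43 genes that passed was 0 in the main analysis, 0 to 2 with one experiment left out (2 without replicate 1), 2 with an intensity trend and robust variances, 1 with array weights and 1 at a threshold of 0.1. For the 88 other genes it was 0 in the main analysis, 0 to 4 with one experiment left out (4 without replicate 1) and 2 with an intensity trend and robust variances. Over all genes it was 0, with 174 without replicate 1, 56 with an intensity trend and robust variances, 4 with array weights, 4 at a threshold of 0.1 and 1 with the second brightest probe set. In the paired fit, leaving out an array also takes its partner out of the estimate. Without the replicate block 0 of the 43 and 0 of the 88 passed, and the median difference over the 43 genes was the same, 0.04. That median was -0.0055 to 0.020 with one experiment left out, 0.070 with quantile normalization, 0.021 with median centring and 0.048 with the second brightest probe set. The count of genes whose miR-224 difference was other in experiment 1 was 0 in both fits. Signs turned for some genes, and the cause was not tested. With the second brightest probe set they stood at 0.23 for SDC3, -0.16 for SULF2, 0.40 for XYLT1, -0.084 for UST, 0.13 for UXS1, -0.17 for HPSE, -0.11 for CHPF2, -0.050 for SLC26A1, 0.14 for SLC35B3, -0.052 for HAS3, -0.067 for HAS2, -0.12 for B3GNT2, -0.17 for B4GALT4, -0.24 for ARSK, 0.14 for NAGLU and -0.11 for MMP14. With the mean of probe sets they stood at 0.056 for SDC3, -0.0093 for CHPF2, -0.015 for B4GALT4 and -0.010 for ARSK. SDC2 was -0.0017 with array weights, -0.012 with quantile normalization and -0.013 with median centring. With one experiment left out the ranges were -0.032 to 0.19 for CHPF2, -0.035 to 0.39 for CHST6, -0.16 to 0.39 for B3GNT7, -0.31 to 0.015 for NAGLU and -0.098 to 0.11 for SDC2. SDC4, CHPF, HS6ST1, HSPG2, B3GALT6, SUMF1, PXYLP1, PAPSS2, ADAM10 and ADAM17 kept their sign under every alternative run. Some of these runs could not change a sign. SDC4, CHPF and SUMF1 have 1 probe set each, so the probe set alternatives used the same values for them. The fit without the block and the threshold of 0.1 leave every difference as it was. The number of arrays limits the precision.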
